A study of Mus musculus with 2 samples.

Results

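The Krüppel-like factors (KLFs) described here are 8 genes, Klf1, Klf2, Klf3, Klf4, Klf5, Klf6, Klf9 and Klf10, read in the skin of newborn mice without keratin 5 (K5-/-, titled ko_skin) and of wild type mice (titled wt_skin). They were chosen by name: every probe set of the array whose platform annotation gives 1 gene symbol, that of a listed gene, was taken, which gave 12 probe sets out of 10833 with a single symbol, for 8 of 8251 genes. Each group was 1 RNA pool from the skin of 6 neonates, hybridised to 1 array, so the data hold 2 arrays and no replicates. Every value below compares those 2 arrays, and no test could be run. The labels give the genotype as K5-/- and as wildtype, name no treatment and no strain, and describe the tissue as epidermis in one field and as skin in others. Mice without keratin 5 are a model of epidermolysis bullosa simplex, in which basal keratinocytes break and the epidermis blisters.

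KLF proteins are transcription factors that bind GC-rich and CACCC sequences through C-terminal zinc fingers. Some members mainly activate genes and others recruit repressors, and the balance differs between tissues. In the epidermis Klf4 is required for the permeability barrier formed before birth, and Klf5 is found in proliferating epithelial cells. Several members, among them Klf2, Klf4, Klf6 and Klf10, respond quickly to growth factors, flow, cytokines or wounding in other settings.

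The deposited values are MAS5 signals, 1 linear intensity per probe set. They are given here after both arrays were scaled to the same trimmed mean. A floor was set at 246.7 signal units, the 40th percentile of all values, below which a signal was raised to the floor before the log2 ratio of knockout over wild type was taken. A gene was called measured when at least 1 of its signals exceeded the floor. Where several probe sets shared a gene, the one of highest mean stood for it. Krt5, the deleted gene, read 81.2 units in knockout skin and 46.6 units in wild type skin, under the floor on both arrays, so it could not check the labels. Krt14 and Krt15 were under the floor as well, while the other 9 of 12 keratinocyte markers on the array were measured, with a median log2 ratio of 0.11.

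As a family the Klf genes read nearly the same on both arrays. Of the 8 genes, 7 were measured, with log2 ratios from -0.19 for Klf3 to 0.46 for Klf6 and a median of 0.0070, beside a median of 0.035 over all 5976 measured genes. Of the 7, 4 were higher and 3 lower in the knockout, where 53.9% of all measured genes were higher, and 0 were at least 2-fold different in either direction. Over all measured genes, 2.24% were at least 2-fold different, 1.54% higher and 0.703% lower, so a count of 0 among 7 genes does not set the family apart. The median stayed between -0.034 and 0.0070 under 9 settings of the processing, and the count past 2-fold was 0 under each of them. Several of these settings could not change most of the ratios, since a floor does not alter a gene that exceeds it on both arrays.

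The measure of technical error that the files offer is the spread between probe sets of one gene. Over 838 genes with 2 or more fully measured probe sets it had a standard deviation of 0.30 in log2 units. Of the 7 measured Klf genes, 6 had a log2 ratio smaller than that in size, all except Klf6. A ratio at least as large as the 0.26 of Klf5, in either direction, was held by 47.4% of all measured genes. A ratio under 0.30 is therefore common on these arrays and does not set the family apart. Counted by probe set, 8 of the 10 Klf ratios were under 0.30, and 93527_at of Klf9, at -0.37, was not. The spread between probe sets holds no variation between animals, pools or hybridisations.

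**Figure D1:**
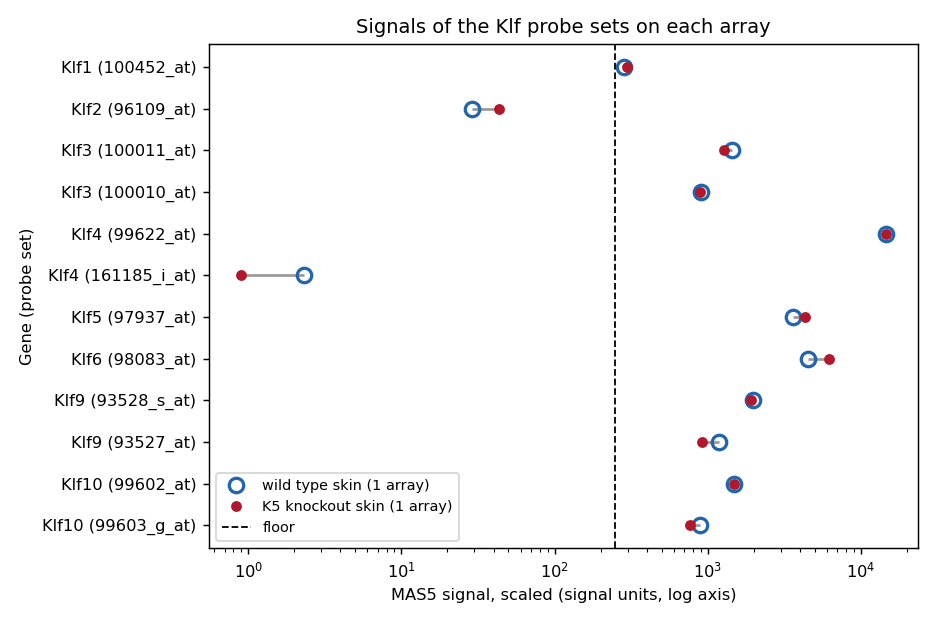
Scaled MAS5 signal (log axis, signal units) of each of the 12 Klf probe sets on the knockout array (filled red) and the wild type array (open blue), with the floor of 246.7 as a dashed line. The probe set of Klf2 and the second probe set of Klf4 lie to the left of the floor, and the other 10 pairs lie to the right of it with their points close together.

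Klf4, the barrier factor, is the member most closely tied to the outer epidermis. Its probe set 99622_at read 14639 units in knockout skin and 14657 units in wild type skin, which is a log2 ratio of -0.0018. The pair of arrays therefore gave almost the same Klf4 signal. The sign of so small a ratio was not fixed: it was 0.10 with quantile normalization and 0.057 with a lowess correction. The other Klf4 probe set, 161185_i_at, read 0.90 units in knockout skin and 2.30 units in wild type skin, under the floor on both arrays, and gives no ratio. The measured value of Klf4 thus rests on 1 probe set.

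Klf5, a factor of proliferating epithelial cells, read 4325 units in knockout skin and 3604 units in wild type skin on its single probe set, 97937_at. That is 1.20-fold higher, a log2 ratio of 0.26, and the ratio lay between 0.25 and 0.33 under the settings tried. Klf6, which was identified as an early response gene and acts in growth control and injury, was the member with the highest ratio. It read 6210 units in knockout skin and 4518 units in wild type skin on probe set 98083_at, 1.37-fold higher. The log2 ratio of 0.46 lay between 0.44 and 0.54 under the settings tried, never at 2-fold. Of all measured genes, 21.9% had a ratio at least as large as that of Klf6 in either direction, so its size is not rare on these arrays.

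Ratios of strong and weak genes were centred differently, so each member was also set beside measured genes of like signal, in 10 classes of equal size by mean signal. Klf6 lay 0.52 above the median of its class, where the middle 50% of genes ran from -0.26 to 0.15 and the central 95% from -0.65 to 0.74. Klf5 lay 0.33 above the median of its class, whose middle 50% ran from -0.27 to 0.17. These were the members outside the middle 50% of like genes, and both were inside the central 95%. Klf1, Klf3, Klf4, Klf9 and Klf10, each read on the probe set that stood for it, lay within the middle 50% of their classes.

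**Figure D2:**
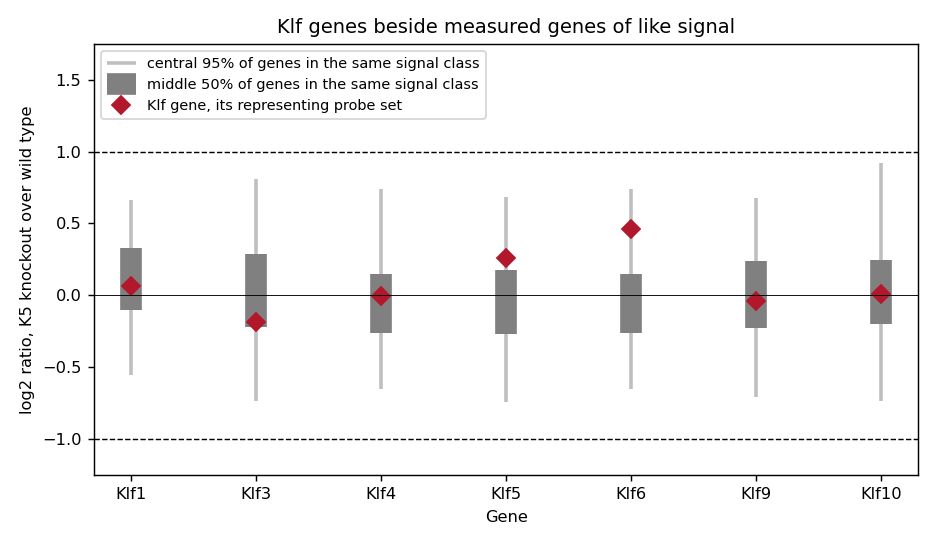
Log2 ratio of knockout over wild type for the 7 measured Klf genes (diamonds), beside the middle 50% (thick bars) and the central 95% (thin lines) of measured genes in the same class of mean signal, with 2-fold marked by dashed lines. Klf5 and Klf6 lie above the thick bars, the other 5 lie on them, and none reaches a dashed line.

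Klf3 and Klf9 are members that often repress. Klf3, which recruits the CtBP corepressors, read 1272 units in knockout skin and 1449 units in wild type skin on probe set 100011_at. On its second probe set, 100010_at, it read 885 and 902. Both Klf3 probe sets were thus slightly lower in the knockout, by 1.14-fold and 1.02-fold. Klf9, a factor induced by glucocorticoids and thyroid hormone that restrains proliferation of keratinocytes in culture, read 1918 units in knockout skin and 1969 units in wild type skin on probe set 93528_s_at, a log2 ratio of -0.038. On probe set 93527_at it read 913 and 1178, a ratio of -0.37 that is the lowest among the Klf probe sets. The Klf9 probe sets agreed in direction and differed by 0.33 in size, and the gene's value depends on which of them represents it: with plain probe sets only (identifiers that end in _at with no further letter) it was -0.37.

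Klf10, first described as a gene induced early by TGF-beta, read 1494 units in knockout skin and 1487 units in wild type skin on probe set 99602_at, a log2 ratio of 0.0070. On probe set 99603_g_at it read 772 and 892, a ratio of -0.21. The probe sets of Klf10 fell on either side of 0, and the gene's ratio was negative as the mean over probe sets (-0.10), with quantile normalization (-0.034) and with the lowess correction (-0.013). The gap between the probe sets of Klf3, Klf9 and Klf10 was 0.16, 0.33 and 0.22, beside a median gap of 0.24 over 741 genes with 2 probe sets above the floor.

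Klf1 and Klf2 gave the weakest information. Klf1, the factor that drives globin and red cell genes, read 298 units in knockout skin and 284 units in wild type skin on probe set 100452_at, just above the floor. Its log2 ratio of 0.066 was -0.090 with quantile normalization and -0.041 with the lowess correction, and it was unmeasured once the floor was set at the 60th percentile. Klf2, which is strong in endothelium and in resting lymphocytes, read 43.5 units in knockout skin and 28.8 units in wild type skin on probe set 96109_at. Both values were under the floor, also with the floor at the 25th percentile, so Klf2 has no ratio. In bulk skin fewer cells of a type and less RNA per cell cannot be told apart.

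**Figure D3:**
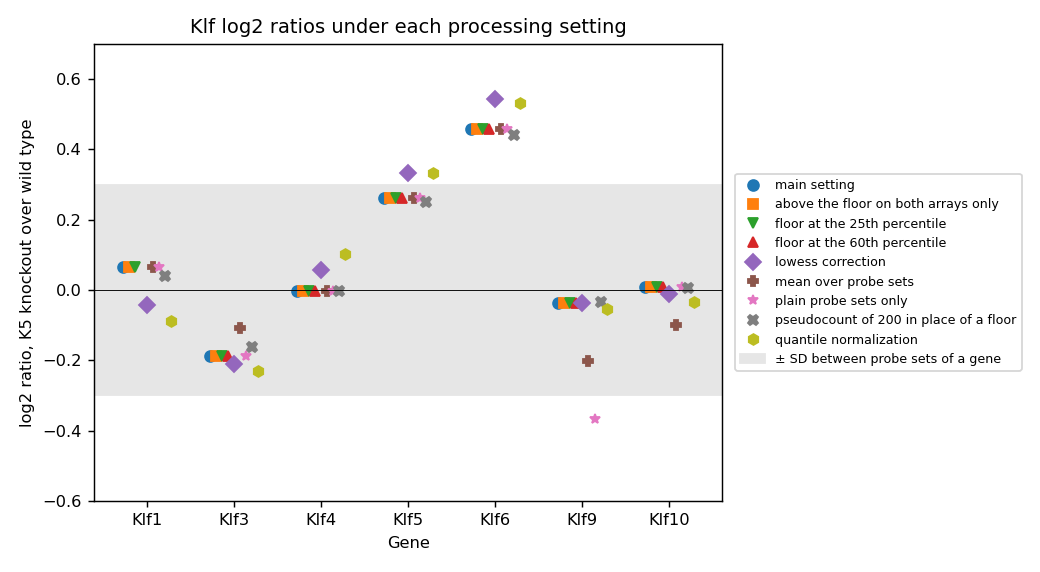
Log2 ratio of knockout over wild type for each measured Klf gene under the main setting and 8 alternatives (symbols), with the standard deviation between probe sets of a gene, 0.30, as a grey band. Klf6 is above the band under every setting, Klf5 crosses its edge, and Klf9 leaves it with plain probe sets only.

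RefSeq promoter windows, 300 bases around the start site on GRCm38.p6, were found for 6 of the 8 genes, Klf1, Klf2, Klf3, Klf4, Klf6 and Klf9. Those of Klf4, Klf6 and Klf9 are shown, the barrier factor and the genes of the highest and the lowest probe set ratio, as the 250 bases upstream of the start site, read 5′ to 3′ on the strand of the gene. They lie at chr4:55532476-55532725 on the minus strand, chr13:5861239-5861488 on the plus strand and chr19:23140976-23141225 on the plus strand. Capitals mark GC boxes (GGGCGG) and CACCC boxes on either strand, the sequences that KLF proteins themselves bind.

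Klf4: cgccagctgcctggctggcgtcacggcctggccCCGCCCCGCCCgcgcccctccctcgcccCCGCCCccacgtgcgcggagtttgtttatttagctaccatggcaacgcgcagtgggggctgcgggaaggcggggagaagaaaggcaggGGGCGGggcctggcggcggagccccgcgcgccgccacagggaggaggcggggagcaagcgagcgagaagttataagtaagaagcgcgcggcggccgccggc

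Klf6: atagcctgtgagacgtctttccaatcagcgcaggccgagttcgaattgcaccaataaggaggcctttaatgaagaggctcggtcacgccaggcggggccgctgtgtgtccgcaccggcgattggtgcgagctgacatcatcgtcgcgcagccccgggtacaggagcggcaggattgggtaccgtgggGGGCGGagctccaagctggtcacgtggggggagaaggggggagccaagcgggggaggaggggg

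Klf9: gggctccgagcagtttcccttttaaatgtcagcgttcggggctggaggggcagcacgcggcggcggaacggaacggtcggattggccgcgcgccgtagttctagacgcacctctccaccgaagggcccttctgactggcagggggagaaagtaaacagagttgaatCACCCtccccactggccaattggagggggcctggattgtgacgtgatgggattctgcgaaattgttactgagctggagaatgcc

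The Klf4 window held 4 GC boxes and the Klf6 window 1, while the Klf9 window held 1 CACCC box and no GC box. A GC box was found in 4 of the 6 Klf windows and in 35.7% of 32851 windows of the same length, and CACCC was found in 4 of 6 and in 57.5%. The sequence TGACG, a part of the cyclic AMP response element, was found in 4 of 6 Klf windows, among them those of Klf4 and Klf9, and in 20.8% of all windows. CCAAT was found in 3 of 6 and in 37.4%. The whole element TGACGTCA (1.79% of all windows), the AP-1 sequences TGACTCA or TGAGTCA (5.20%), the CArG box (1.63%) and TATAAA (13.6%) were found in 0 of the 6 Klf windows. All motifs were searched on both strands, and TGACGTCA contains TGACG. The upstream GC content was 74.0% for Klf4, 64.8% for Klf6 and 59.6% for Klf9, beside a median of 52.4% upstream in all windows. A match describes these letters only, and Klf5 and Klf10 were not analysed here.

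Of 17 other genes of the KLF and SP family listed for comparison, 7 had a probe set. Of those 7, 3 were measured, beside 5976 of all 8251 genes. Sp1, a ubiquitous GC box factor, read 566 units in knockout skin and 223 units in wild type skin, under the floor, so it was at least 2.29-fold higher. Its log2 ratio was 0.86, under 2-fold, when a pseudocount replaced the floor, and Sp1 was unmeasured once the floor was set at the 60th percentile. Sp3, which binds the same boxes, read 2057 and 2738, a log2 ratio of -0.41. Klf13 had probe sets of opposite sign, at -0.49 (1662 against 2331) and 0.34 (1518 against 1196), a gap of 0.83, while 90% of genes with 2 measured probe sets had a gap under 0.67. Klf7, Klf12, Klf17 and Sp4 were at the floor on both arrays. The median of the 3 measured genes, -0.41, was -0.072 when probe sets were averaged. It was 0.036 with a floor at the 25th percentile, where 5 genes were measured.

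Genes that encode partners of KLF proteins did not move in one direction. Of 15 measured genes for corepressors, coactivators and ubiquitin ligases, 7 were higher and 8 lower, 1 of the latter by 2-fold or more. Over all measured genes, 53.9% were higher and 0.703% at least 2-fold lower. The list median was -0.12, and it was 0.0020 with the floor at the 60th percentile. Ctbp1, a corepressor partner of Klf3, read 3817 units in knockout skin and 5718 units in wild type skin, which is a log2 ratio of -0.58. Ctbp2, the other CtBP gene, named because it went the other way, read 2006 and 1361, a ratio of 0.56. Siah1a, a ubiquitin ligase gene, was at -0.51. The acetyltransferase gene Kat2b was at 0.74 and the deacetylase gene Hdac3 at 0.66. Kat2a, another acetyltransferase gene, exceeded the floor in wild type skin only and was at least 2.49-fold lower in the knockout, with -0.93 under the pseudocount and no measurement with the floor at the 60th percentile.

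The immediate early genes, with which Klf4, Klf6 and Klf10 are often counted, read higher on the knockout array as a list. Of 21 measured genes of that list, which leaves out the Klf genes, 19 were higher and 11 at least 2-fold higher, beside 1.54% of all measured genes. The list median was a log2 ratio of 1.18, and it was 0.96 with plain probe sets only. This list was chosen with earlier results of these data known, so its counts and median are a description only. Nr4a1, an orphan nuclear receptor gene, was at 2.44 and Zfp36, which encodes a protein that destabilises mRNAs, at 2.25, and Fosl1 was at least 2.31-fold higher, though unmeasured with the floor at the 60th percentile. Egr2 was at -0.24 and Jund at -0.0022. Klf6 at 0.46, Klf10 at 0.0070 and Klf4 at -0.0018 lie below the median of that list, a difference that was not tested.

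Lists tied to single Klf genes gave the following values, to be read beside the 53.9% of all measured genes that were higher and the 1.54% that were at least 2-fold higher. Of 13 measured TGF-beta early response genes, the setting in which Klf10 was described, 9 were higher, 2 of them by 2-fold or more, and the median was 0.31. Ccn1, a matricellular protein gene, was at 1.52 and Junb at 1.37, while Tgif1, a repressor of the pathway, was at -0.65 and Ccn2 at -0.74. Of 15 measured glucocorticoid response genes, the setting of Klf9, 11 were higher, 1 of them by 2-fold or more, with a median of 0.12. Dusp1, a phosphatase gene, was at 1.39 and Errfi1, an inhibitor of EGF receptor signalling, at 0.86. Zbtb16, a zinc finger gene induced by glucocorticoids, was at -0.61 and the kinase gene Sgk1 at -0.45. Ccn1, Junb and Dusp1 are also in the immediate early list.

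Epidermal differentiation genes linked to Klf4 were mostly higher by small amounts. Of 17 measured, 15 were higher, 3 of them by 2-fold or more, with a median of 0.16, beside 53.9% and 1.54% of all measured genes and a Klf4 ratio of -0.0018. This list was not split by whether Klf4 raises or lowers each gene, so its counts give no direction of Klf4 action. Involucrin (Ivl), a cornified envelope protein gene, was at 1.27 and Sprr1a at 1.03, and Sprr3 was at least 3.08-fold higher. Sprr1a was at 0.97 under the pseudocount, and the bound for Sprr3 was 0.20 on the log2 scale with the floor at the 60th percentile. The tight junction gene Cldn1 was at -0.39 and Krt10, the suprabasal keratin, at -0.18. The list of cell cycle genes linked to Klf4 and Klf5 holds drivers of division and also the inhibitor gene Cdkn1a, which Klf4 induces in cultured cells. Of 14 measured genes of that list, 10 had lower and 4 had higher signals in the knockout, with 0 past 2-fold in either direction. Over all measured genes, 53.9% were higher and 0.703% at least 2-fold lower. The list median was -0.37. The mitotic kinase genes Cdk1 and Plk1 were at -0.996 and -0.97, and Cdkn1a and Myc, a growth regulator, were at 0.73 and 0.33. Cdkn1a is also in the glucocorticoid list and Myc in the immediate early list.

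Lists of vessel and blood genes are given as context for Klf2, which has no ratio, and Klf1, which was just above the floor. Beside the 53.9% of all measured genes that were higher, the share was 64.4% and 64.0% in the 2 classes of weakest signal, and 1.54% of all measured genes were at least 2-fold higher. Of 11 measured endothelial genes linked to Klf2 and Klf4, 9 were higher, 2 of them by 2-fold or more, with a median of 0.69. That median was -0.012 with the floor at the 60th percentile, which left 4 genes measured. The list was not split by whether Klf2 raises or lowers each gene, so these counts give no direction of Klf2 action. Whether the signals came from endothelium was not tested. Adm, a vasoactive peptide gene, was at 1.58 and Vwf, which encodes a clotting factor carrier of vessel cells, at 1.05, while Edn1, the endothelin gene, was at -0.69 and Cav1 at -0.11. Vwf was under 2-fold with quantile normalization (0.92), with the lowess correction (0.94) and under the pseudocount (0.71), and the highest floor tried left Adm at a bound of 0.55. Endothelial markers had a median of 0.17, with 6 of 9 measured genes higher: Kdr, a VEGF receptor gene, was at 0.77, Cdh5 at -0.19 and Tie1 at -0.22, the last of these at 0.23 as the mean over probe sets. That median was -0.10 with the floor at the 60th percentile. The endothelial lists share genes, Vwf among them, so they are not separate sets. Of 8 measured erythroid genes, 7 were higher, 0 of them by 2-fold or more, with a median of 0.32. Ank1, a red cell membrane gene, was at 0.53, the heme synthesis gene Alas2 at 0.40 and the globin gene Hbb-b2 at -0.13.

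**Figure D4:**
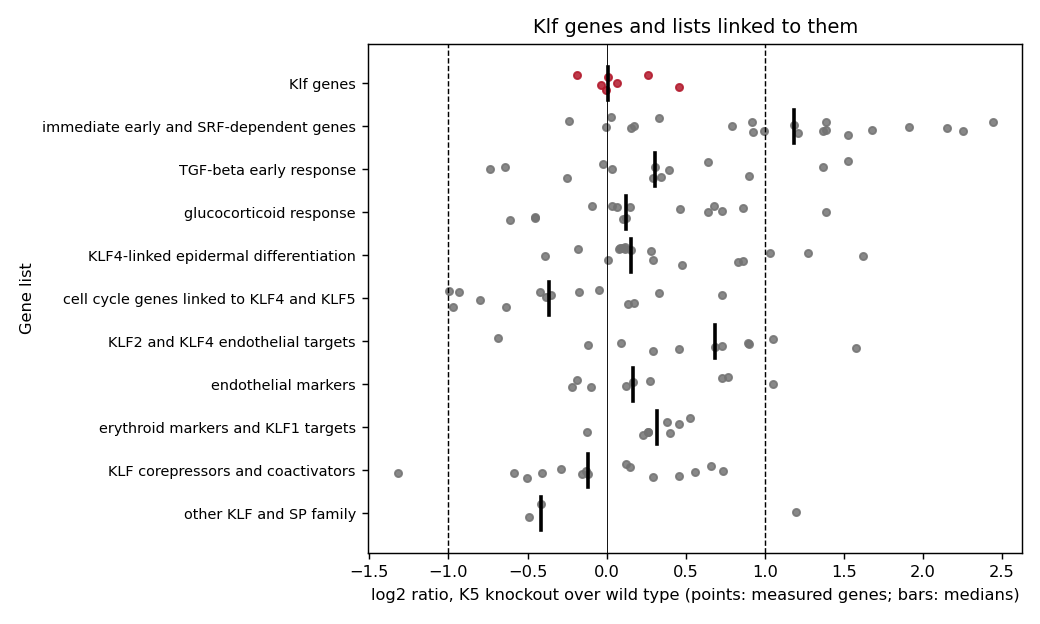
Log2 ratio of knockout over wild type for the measured Klf genes (red) and for measured genes of 10 lists linked to them (grey), with list medians as black bars and 2-fold as dashed lines. The Klf genes cluster around 0, the immediate early list has a median of 1.18 and the cell cycle list one of -0.37.

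Other cells that carry Klf genes were also read. All 11 measured macrophage and monocyte markers were higher, beside 53.9% of all measured genes, with a median of 0.49: Adgre1 was at 0.97 and C1qb at 0.96, the latter -0.022 as the mean over probe sets. Their summed signal over the 16 markers on the array was 20027 units in knockout skin and 14387 units in wild type skin. Myeloid cells carry Klf6, and the part of these cells in the Klf6 value was not tested. Of 14 lymphocyte markers on the array, 10 did not exceed the floor, among them Cd3e, Cd3d and Cd79b, beside 2275 of all 8251 genes. The 4 measured ones had a median of 0.049, which was -0.061 with the lowess correction and -0.081 with quantile normalization. Cd4 was at 0.18, Ms4a1 at 0.14 and Itgb7 at -0.048. Cd79a, a B cell receptor gene named to complete the 4, had a bound of -0.18.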

How the data were processed

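Per the labels' protocols, neonatal skin was frozen at once, total RNA was extracted with TRIzol, pooled over 6 animals a group and cleaned on a column, and biotinylated cRNA was made from 2 µg of it. The deposited values are MAS5 intensities on a linear scale, per the submitters' processing notes. The MAS5 version, scaling target and detection calls are not given in the sources used here. Annotation of the array platform, which can be old, named the genes, and 8237 of 8251 symbols were matched to a RefSeq gene table by Entrez identifier.

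From these intensities the arrays were scaled to the same 2% trimmed mean over probe sets that are not controls (factors 1.00015 and 0.999853), floored at the 40th percentile, and compared as log2 ratios, with Python 3.11.15, numpy 2.4.6 and pandas 2.3.3. The lowess alternative used statsmodels 0.14.6. The calculation was run on simulated data with changes set only in genes of strong signal, so it was not tried on changes in weak ones. With 1 array a group no test was possible, and the number of arrays limits the precision. The Klf genes and lists were chosen with earlier results of these data known. Named genes are all Klf genes, the measured family genes and, for each other list, up to 2 genes with the highest and 2 with the lowest ratio above the floor on both arrays, plus bounds past 2-fold. Ctbp2 and Cd79a, outside that rule, were chosen after their values were seen. With 2 arrays no likeness between gene patterns can be computed.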

Additional observations from a re-analysis of the deposited data

How the results depend on the processing

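The 8 alternatives were a floor at the 25th or the 60th percentile, a pseudocount of 200 in place of a floor, quantile normalization, a lowess correction, genes above the floor on both arrays only, the mean over probe sets and plain probe sets only. The 24 values of the family's median and its counts past 2-fold stayed within the spread between probe sets or at the same count. The number of all genes at least 2-fold higher was 92, and it was 205 with the floor at the 25th percentile, 44 with that at the 60th and 45 with the pseudocount; for lower genes the numbers were 42, 94, 19 and 18. Klf3 and Klf9 were lower, and Klf5 and Klf6 higher, under every setting run. The floors tried could not change these ratios, and the choice among probe sets could not change those of Klf5 and Klf6, which have a single probe set. Klf1, Klf4 and Klf10 changed sign with quantile normalization and lowess. No paired analysis was possible because each group has 1 array. The weak signals of Klf1 and Klf2 limit what can be read from them.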

Other observations

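Markers of other tissues that whole skin can hold were read in the same way, and their part in the Klf values was not tested. Over all measured genes 53.9% were higher in the knockout. Of 15 measured hair follicle markers, 13 were higher in the knockout, with a median log2 ratio of 0.46. Krt86, a hair keratin gene, was at 1.22 and Krtap8-1 at 1.04, while Krt81 was at -0.026 and Krt17 at -0.999. Krtap8-1 was at 0.96 with quantile normalization and at 0.80 in the lowest of the settings tried. Of 15 measured skeletal muscle markers, 13 were higher, with a median of 0.23. The myosin genes Myh8 and Myh1 were at 0.94 and 0.88, the latter at a bound of 0.12 with the highest floor tried, and Pvalb and Tnni1 at -0.16 and -0.23. Of 14 measured dermal fibroblast and matrix markers, 9 were higher, with a median of 0.11. Pdgfra, a growth factor receptor gene of dermal fibroblasts, was at 1.02 (0.68 when its probe sets were averaged), and the collagen gene Col1a2 at 0.34, while Dpt was at -0.30 and Thy1 at -0.54.

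Fat cell differentiation is a process in which several Klf genes act. Of 12 measured adipocyte regulators and markers, 8 were higher in the knockout, 1 of them by 2-fold or more, with a median of 0.24, beside 53.9% and 1.54% of all measured genes. Lep, which encodes the hormone leptin, read 2501 units in knockout skin and 870 units in wild type skin, a log2 ratio of 1.52 that was at least 1.34 under every setting run. Cebpb, an early regulator that is also in the glucocorticoid list, was at 0.68, the desaturase gene Scd1 at -0.85 and the lipid carrier gene Fabp4 at -0.20.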
